A study of Mus musculus with 6 samples.

Results

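Heat-shock proteins, DnaJ co-chaperones and the subunits of the CCT chaperonin were followed in the livers of Nogo knockout mice and wild-type littermates. The members were taken by gene name: the HSP70, HSP110, HSP90 and small heat-shock protein families, the mitochondrial chaperonin, the DnaJ A, B and C families, CCT subunits, BAG proteins 1 to 6 and the heat-shock factors Hsf1 and Hsf2. The patterns matched 90 of the 54232 genes in the table. Chaperones of the endoplasmic reticulum (Hspa5, Hsp90b1, Dnajb9, Dnajb11 and Dnajc3), Hspbap1 and 1 pseudogene name were left out, which leaves 83 members. The rule itself reads gene names and no measured value, though the group was proposed with earlier results of these data known.

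Each genotype is represented by the livers of 3 mice, aged 8 weeks and fed normal chow. The mice carry the genotype Nogo-/- or are WT littermates, and the labels do not state sex, the tissue handling or which exons the Nogo deletion removes. Nogo is the protein of the gene Rtn4. Rtn4 stood at 40.5, 52.8 and 56.0 CPM in wild type 2, 4 and 11 and at 4.63, 8.22 and 4.69 CPM in knockout 1, 2 and 4, so each library had the Rtn4 level of its label. CPM are counts scaled to library size after TMM normalization, and the numbers name the libraries as their labels do. Library totals ran from 17568223 to 20902369 counts, and 3 counts corresponded to 0.139 to 0.199 CPM. Mitochondrially encoded genes held 6.17% to 6.90% of each wild-type library, 28.6% of knockout 1, 19.7% of knockout 2 and 11.8% of knockout 4. Of 8 hepatocyte markers, including Alb and Ttr, 8 were tested and 0 were called, and their summed level was 91547 to 109719 CPM in wild type and 79084 to 116520 CPM in knockout.

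As background, HSP70 binds exposed hydrophobic stretches of unfolded proteins in a cycle that DnaJ proteins start and that nucleotide exchange factors, among them HSP110, BAG proteins and Hspbp1, bring to an end. HSP90 acts on clients that are nearly folded, such as kinases and steroid receptors, and the CCT chaperonin closes around actin and tubulin. Heat-shock factor 1 binds repeats of the motif nGAAn and raises a part of these genes under heat or misfolding (the inducible members), while cognate genes such as Hspa8 and Hsp90ab1 are made at all times (the constitutive members).

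The windows around the starts of inducible members show where such motifs lie. They are printed only for inducible members that fell and that had an element. Each window holds 250 bases before and 50 bases from 1 RefSeq start site on GRCm38.p6, the build of mm10. A gene can have several such windows, and 67 of the 83 members had at least 1. Where windows of a gene differed, one with an element was chosen for printing. Capitals mark GAA and TTC with 2 bases of any kind between them, in either order (the 2-unit element), or in Hsph1 a run of 3 such alternating units, each 2 bases from the next. Another 2-unit element in the Hsph1 window is not marked. Both orders were searched on both strands, and the 2-unit element lies inside the 3-unit element.
Hspa1b, chr17:34959189-34959488, minus strand: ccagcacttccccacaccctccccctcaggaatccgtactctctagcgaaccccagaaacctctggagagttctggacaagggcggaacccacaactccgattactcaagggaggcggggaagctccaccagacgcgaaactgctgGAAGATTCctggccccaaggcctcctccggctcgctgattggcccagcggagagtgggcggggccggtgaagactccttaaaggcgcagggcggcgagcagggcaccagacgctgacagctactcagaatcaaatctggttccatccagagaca
Hspa1a, chr17:34972107-34972406, minus strand: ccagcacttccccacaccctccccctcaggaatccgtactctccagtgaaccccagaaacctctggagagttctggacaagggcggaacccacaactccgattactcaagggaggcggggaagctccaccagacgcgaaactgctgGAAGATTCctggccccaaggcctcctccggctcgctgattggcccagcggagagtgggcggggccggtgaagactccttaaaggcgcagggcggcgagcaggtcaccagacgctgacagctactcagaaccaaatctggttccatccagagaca
Hsph1, chr5:149636266-149636565, minus strand: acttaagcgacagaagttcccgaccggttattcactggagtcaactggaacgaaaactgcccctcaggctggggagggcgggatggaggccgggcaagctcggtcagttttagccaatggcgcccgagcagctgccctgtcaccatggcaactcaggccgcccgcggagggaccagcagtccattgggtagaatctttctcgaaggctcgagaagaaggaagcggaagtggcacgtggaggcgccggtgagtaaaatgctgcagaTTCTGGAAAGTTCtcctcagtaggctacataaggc
Dnaja1, chr4:40722218-40722517, plus strand: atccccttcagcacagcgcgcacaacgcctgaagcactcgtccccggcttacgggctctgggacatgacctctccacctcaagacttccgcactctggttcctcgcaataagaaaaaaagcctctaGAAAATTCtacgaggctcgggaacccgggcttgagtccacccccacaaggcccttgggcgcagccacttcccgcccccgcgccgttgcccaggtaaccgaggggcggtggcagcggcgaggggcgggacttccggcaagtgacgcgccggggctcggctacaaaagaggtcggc
Dnajb4, chr3:152193796-152194095, minus strand: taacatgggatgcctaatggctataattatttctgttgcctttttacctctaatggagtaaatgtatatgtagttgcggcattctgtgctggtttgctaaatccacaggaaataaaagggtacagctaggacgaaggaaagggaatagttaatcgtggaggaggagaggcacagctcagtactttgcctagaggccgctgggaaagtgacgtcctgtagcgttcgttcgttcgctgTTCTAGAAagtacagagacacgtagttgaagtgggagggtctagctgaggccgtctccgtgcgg
In Hspa1b and Hspa1a, with 1 window each, the marked element began 104 bases before the start, and their windows were equal at 296 of 300 bases. It began 15 bases after the start in the Hsph1 window, and both windows of Hsph1 held it. In Dnaja1 it began 124 bases before the start and was found in 1 of 3 windows. In Dnajb4 it was found in 1 of 2 windows, 14 bases before a start site that lies 16457 bases inside the annotated gene, and the window near the outer start of Dnajb4 held none. Neither Dnajb1 window held these letters, and Hsp90aa1 had no window. Of the inducible members that were not called, Hspb1 held 2 such elements, Bag3 held 1 and Hspa4l held none. The element was thus present both in inducible members that fell and in some that did not. Counting a gene when any of its windows held it, a 2-unit element was present in 7 of 9 inducible members with a window (77.8%), in 3 of 15 constitutive members (20.0%) and in 17.0% of all 27025 genes with windows. The 3-unit element was found in Hsph1, Dnajb6, Hspd1 and Hspe1, which is 5.97% of the members with a window, against 0.662% of all genes. Hspd1 and Hspe1 lie head to head on chromosome 1 and their annotated genes overlap by 112 bases, so the windows that hold the element overlap. These matches describe letters in the reference sequence, and binding was not measured. The inducible members were listed as known targets of heat-shock factor 1, so their higher share was partly built in.

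Chaperone genes that differed between the genotypes were nearly all lower in knockout liver. Of the 83 members, 71 passed the filter on low counts and were tested with edgeR across the whole table. Of these, 15 fell and 1 rose at an adjusted p under 0.05, which is 21.1% and 1.41% of the tested members. Over all 13304 tested genes 8.29% fell and 8.76% rose, and 17.0% were called in either direction. The 3 knockout levels lay below the 3 wild-type levels in 25 tested members and above them in 10, or 35.2% and 14.1%, where all tested genes gave 19.2% and 19.7%. The median log2 fold change, knockout minus wild type, was −0.21 over tested members and 0.01 over all tested genes. Dnaja4, Hspa1a and Cct6b reached the count minimum of the filter in 3 wild-type libraries but in only 2, 2 and 0 knockout libraries. They are said below to pass the filter through wild type only, and a difference in them was partly built in.

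**Figure D1:**
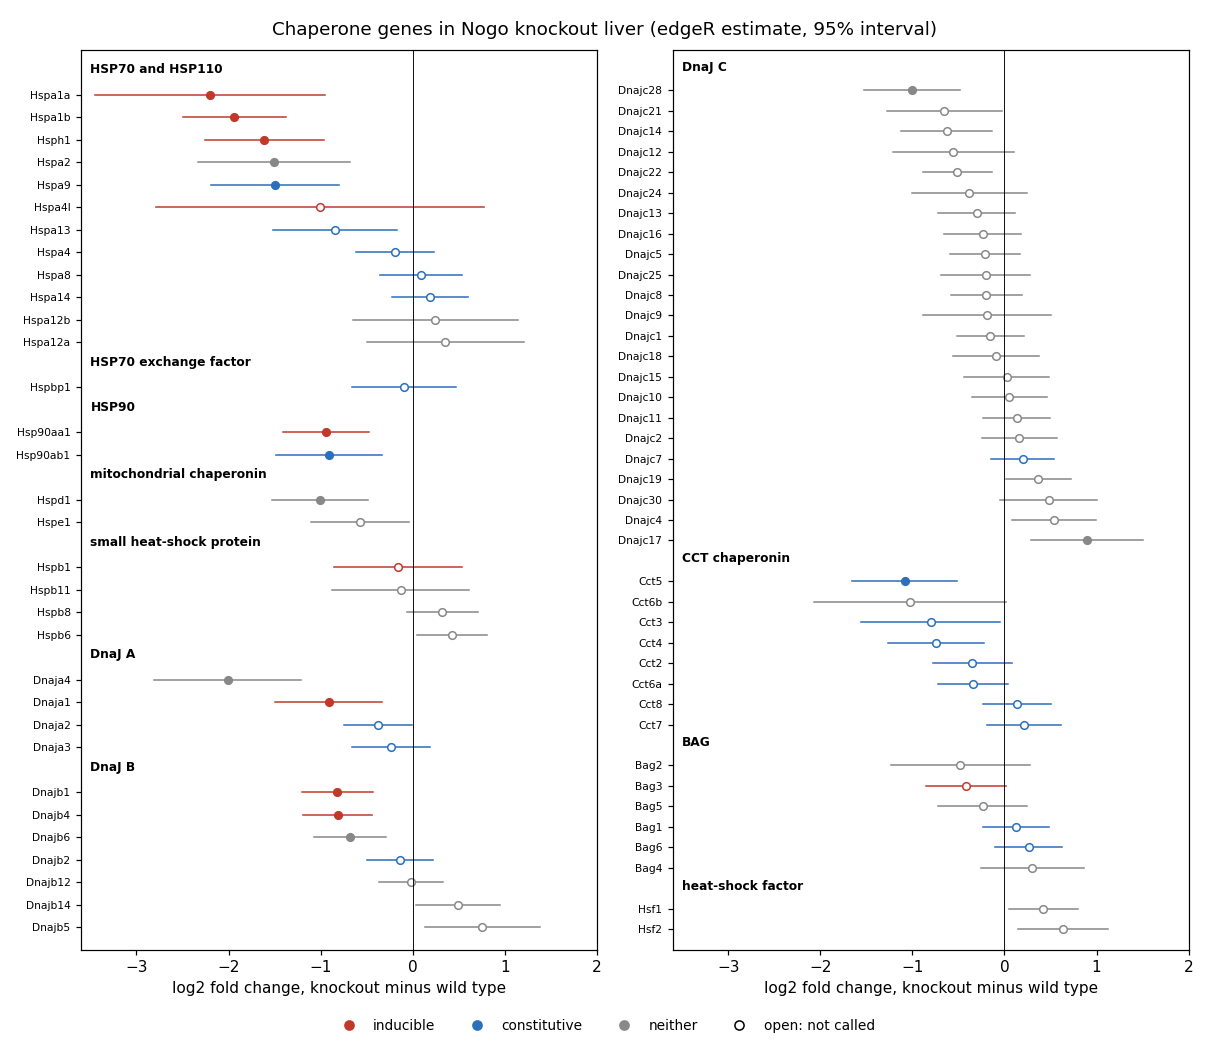
Log2 fold change of each tested chaperone gene, knockout minus wild type (x axis, edgeR), with its 95% interval, grouped by family; filled points passed at an adjusted p under 0.05 and colours mark inducible, constitutive and other members. The 15 filled points left of 0 include 7 of the 10 inducible members, and Dnajc17 is the filled point right of 0.

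The falls were larger in knockout 1 and 2 than in knockout 4. Against the wild-type mean of log2(CPM + 0.5), the median change over tested members was −0.40 in knockout 1, −0.30 in knockout 2 and −0.03 in knockout 4, in the order of their mitochondrial shares of 28.6%, 19.7% and 11.8%. When 1 library was left out, 8 members fell without wild type 2 (3.18% of all genes fell), 4 without wild type 4 (2.39%) and 10 without wild type 11 (6.36%). Leaving out knockout 1 gave 6 (2.99%), knockout 2 gave 4 (3.05%) and knockout 4 gave 25 (15.7%). In the same order 0, 0, 1, 0, 0 and 3 members rose, with 2.85%, 2.18%, 5.96%, 2.92%, 4.15% and 13.7% of all genes. The number that fell was 17 with library totals in place of TMM (11.8% of all genes), 21 with no filter on low counts (7.66%), 15 at 1 CPM or more in 3 libraries (8.57%), 18 with DESeq2 (9.76%), 11 with a replicate block (6.88%) and 15 with mitochondrial genes left out (8.22%). Members that rose then numbered 0, 0, 1, 0, 0 and 1, where 5.19%, 6.26%, 9.36%, 8.68%, 5.80% and 8.99% of all genes rose. Hspa1b, Hsph1 and Dnaja4 passed in each of the 6 fits that left out 1 library, with adjusted p-values up to 0.026, 0.039 and 0.042. Dnaja4 passed the filter on low counts through wild type only, so its fall was partly built in. Hspa9 passed in 5 and was lost without knockout 2 (adjusted p = 0.053), and Dnajb4 passed in 4, Dnajb1, Hsp90aa1 and Hspa2 in 3, Hspd1, Dnajb6, Dnajc28 and Hspa1a in 2 and Hsp90ab1, Dnaja1 and Cct5 in 1. Adding the share of mitochondrial counts to the edgeR model left 0 genes called in the whole table (1146 at an unadjusted p under 0.05, 8 of them members), and only edgeR was run this way. Genotype and mitochondrial share cannot be told apart in 6 libraries, and the part of the latter in these falls was not tested further.

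The stress-inducible HSP70 genes were among the chaperones with the largest falls. Hspa1b, one of a pair of genes for the inducible HSP70 (chromosome 17, 34956436 to 34959238, minus strand, mm10), was at 36.1, 42.1 and 65.3 CPM in wild type 2, 4 and 11 and at 10.3, 12.1 and 15.0 CPM in knockout 1, 2 and 4. The groups did not overlap, and knockout 4 was the highest of the knockout libraries, close to the others. The log2 fold change was −1.94 ± 0.25 (SE; adjusted p = 0.00425; 3.83-fold). Its neighbour Hspa1a (34969190 to 34972156), which encodes nearly the same protein, had 1.33, 2.19 and 5.43 CPM in wild type and 0.861, 0.376 and 0.722 CPM in knockout. It fell by 2.20 on the log2 scale with an SE of 0.57 (adjusted p = 0.0267), from counts of 28, 41 and 117 to 13, 7 and 12. Hspa1a passed the filter on low counts through wild type only, so this fall was partly built in. Of the 50-base words of Hspa1b and Hspa1a, 62.3% and 66.3% occur in another gene, mostly with each other, so reads may have been lost or split between them. Their summed level was 50.8 ± 17.6 CPM in wild type and 13.1 ± 2.36 CPM in knockout (SD, n = 3 each). Wild type 11 was the highest library for both.

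Hsph1, an HSP110 that exchanges nucleotide on HSP70, fell with them and shares no 50-base word with another gene. It lies on chromosome 5 (149614287 to 149636376, minus strand). Its level was 62.3, 68.9 and 64.3 CPM in wild type and 12.8, 18.3 and 32.9 CPM in knockout. The wild-type libraries were close together and knockout 4 was the highest of the knockout libraries, still below all wild types. The log2 fold change was −1.61 ± 0.29 (adjusted p = 0.00897). Hspa4, its constitutive relative, stood at 119, 103 and 104 CPM in wild type and 81.4, 86.2 and 117 CPM in knockout, which overlap. The value of Hspa4 was −0.19 ± 0.19 with a 95% interval from −0.61 to 0.23. Hspa4l, the remaining relative, was near 1 CPM and spread widely, with 0.285, 2.77 and 0.650 CPM in wild type (−1.01 ± 0.81, adjusted p = 0.410).

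The cytosolic HSP90 genes fell together, inducible and constitutive alike. Hsp90aa1, the inducible form, had 126, 158 and 194 CPM in wild type and 77.5, 72.6 and 98.5 CPM in knockout (−0.94 ± 0.21, adjusted p = 0.0162). Hsp90ab1, the constitutive form, had 824, 903 and 993 CPM in wild type and 379, 373 and 699 CPM in knockout (−0.91 ± 0.26, adjusted p = 0.0387). Neither gene overlapped between the genotypes. Knockout 4 lay nearest to wild type in both, and the call for Hsp90ab1 held in only 1 of the fits that left out a library, that without knockout 4. Of the 50-base words of Hsp90aa1, 47.5% occur in other genes, most often in Gm12346, so its level is uncertain.

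**Figure D2:**
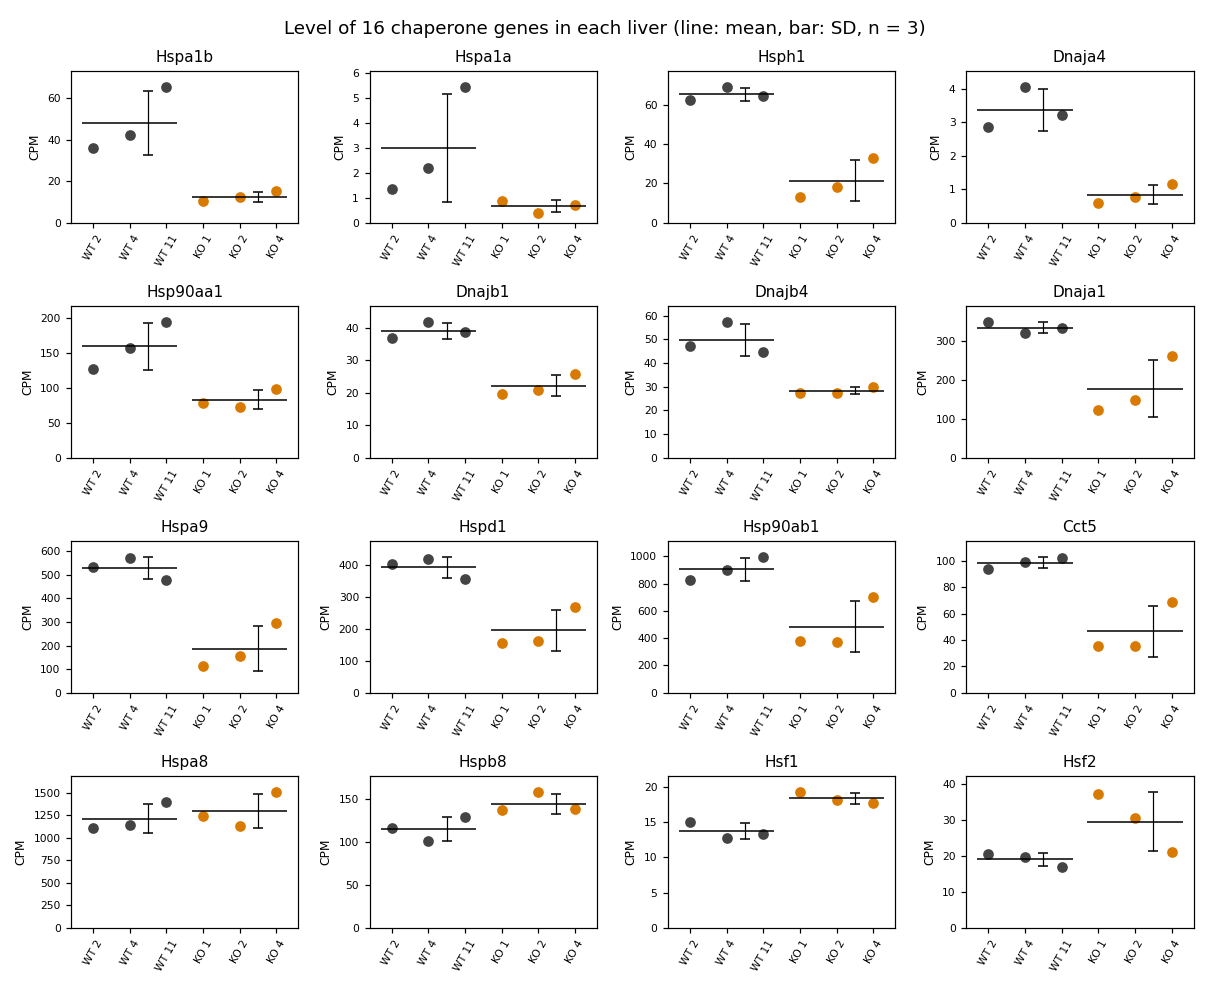
Level in CPM (y axis, from 0) of 16 chaperone genes in each of the 3 wild-type (WT) and 3 knockout (KO) livers, with the mean as a line and the SD as a bar. Hspa1b, Hsph1 and Dnaja4 lie lower in the 3 knockout livers, though Dnaja4 passed the filter on low counts through wild type only. Hspa8 overlaps between the genotypes and Hsf1 lies higher in knockout without passing the test.

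Among the DnaJ genes, which deliver clients to HSP70, 2 of 4 tested members of the A family, 3 of 7 of the B family and 1 of 23 of the C family (4.35%) fell, beside 8.29% of all genes. Dnaja4 was at 2.85, 4.05 and 3.20 CPM in wild type and 0.596, 0.752 and 1.14 CPM in knockout (−2.01 ± 0.36, adjusted p = 0.00845). It was not put on the inducible list. It has a low level, and 42.7% of its words are shared, mainly with Wdr61. Dnaja4 passed the filter on low counts through wild type only, so its fall was partly built in. Dnajb1, the main HSP70 partner of the heat-shock response, had 36.7, 41.7 and 38.6 CPM in wild type and 19.7, 20.8 and 25.8 CPM in knockout (−0.82 ± 0.17, adjusted p = 0.0137). Dnajb4, a near relative, had 47.3, 57.3 and 44.4 CPM in wild type and 27.4, 27.4 and 30.0 CPM in knockout (−0.81 ± 0.17, adjusted p = 0.0129). Neither overlapped between the genotypes, and for Dnajb4 the 3 knockout livers were nearly equal. Dnaja1 fell from 333 ± 14.4 to 177 ± 73.4 CPM (−0.91 ± 0.26, adjusted p = 0.040), with 122, 149 and 261 CPM in knockout 1, 2 and 4. Dnajb6, which keeps aggregation-prone proteins soluble, fell from 67.4 ± 4.82 to 42.1 ± 6.15 CPM (−0.68 ± 0.18, adjusted p = 0.0269).

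The other A and B members that were tested did not pass. Dnaja2 was at −0.38 ± 0.17, with knockout below wild type in each library, and Dnaja3, a mitochondrial form, was at −0.24 ± 0.19. Dnajb2 and Dnajb12 were at −0.13 ± 0.16 and −0.02 ± 0.16, and Dnajb14 and Dnajb5 were at 0.49 ± 0.21 and 0.76 ± 0.28 (adjusted p = 0.123 and 0.0896), the latter without overlap. Dnajb14 stood at 29.9 and 29.4 CPM in knockout 1 and 2 and at 19.0 CPM in knockout 4, where wild type had 17.4 to 20.5 CPM. Of 23 tested C members, 1 fell and 1 rose, or 8.70% against 17.0% of all genes, and their median was −0.19. Dnajc28 had 11.5, 10.9 and 9.75 CPM in wild type and 4.83, 4.30 and 6.98 CPM in knockout (−1.0 ± 0.24, adjusted p = 0.0197). Dnajc17 had 2.85, 2.08 and 3.11 CPM in wild type and 5.03, 5.75 and 4.21 CPM in knockout (0.89 ± 0.27, adjusted p = 0.0477). The rise of Dnajc17 was lost in 5 of the 6 fits without 1 library, the exception being that without knockout 4, and with DESeq2 (adjusted p = 0.0501). The remaining 21 C members lay between −0.65 (Dnajc21) and 0.54 (Dnajc4). Over all 23 tested C members, 26.1% lay lower and 17.4% higher in knockout without overlap, where all tested genes gave 19.2% and 19.7%. Of the 21 that were not called, 8 did not overlap between the genotypes. Knockout was lower for Dnajc22 (−0.51 ± 0.17, adjusted p = 0.0628), Dnajc14 (−0.63 ± 0.22, adjusted p = 0.0764), Dnajc21 (−0.65 ± 0.28), Dnajc1 (−0.15 ± 0.16) and Dnajc18 (−0.09 ± 0.21). It was higher for Dnajc4 (0.54 ± 0.21), Dnajc19 (0.37 ± 0.16) and Dnajc7 (0.20 ± 0.16).

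Set side by side, 7 of 10 inducible members and 3 of 20 constitutive members fell and 0 of either rose, beside 8.29% and 8.76% of all genes. Hspa1a, among the 7, passed the filter on low counts through wild type only. In knockout 1, 2 and 4, 10, 9 and 9 of the 10 inducible members lay below their wild-type mean, Hspb1 being the exception in knockout 2 and 4. Of the 20 constitutive members 13, 15 and 10 lay below it. This was not counted over all tested genes in each library, but their median change there was −0.0005, 0.02 and −0.006. Of all 13304 tested genes, 6535 had a log2 fold change below 0. Both lists were drawn up from general knowledge of the heat-shock response with earlier results of these data known, so the counts are descriptions. The median log2 fold change was −0.93 over the inducible and −0.22 over the constitutive members, beside 0.01 over all tested genes. In knockout 1, 2 and 4 the median change was −1.09, −1.0 and −0.63 for the inducible and −0.43, −0.34 and 0.02 for the constitutive members, while the 3 wild types ranged from −0.18 to 0.03 and from −0.04 to 0.09. With knockout 4 alone against the 3 wild types the medians were −0.64 and 0.016, 0 members passed, and 25 of 14074 genes were called (0.178%). That comparison takes its spread from the wild types and assumes that knockout varies like them. With mitochondrial share in the model the medians were −0.57 and 0.12. Leaving out wild type 2, 4 or 11 gave 6, 2 or 5 inducible members that fell (3.18%, 2.39% or 6.36% of all genes), and leaving out knockout 1, 2 or 4 gave 3, 2 or 8 (2.99%, 3.05% or 15.7%).

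**Figure D3:**
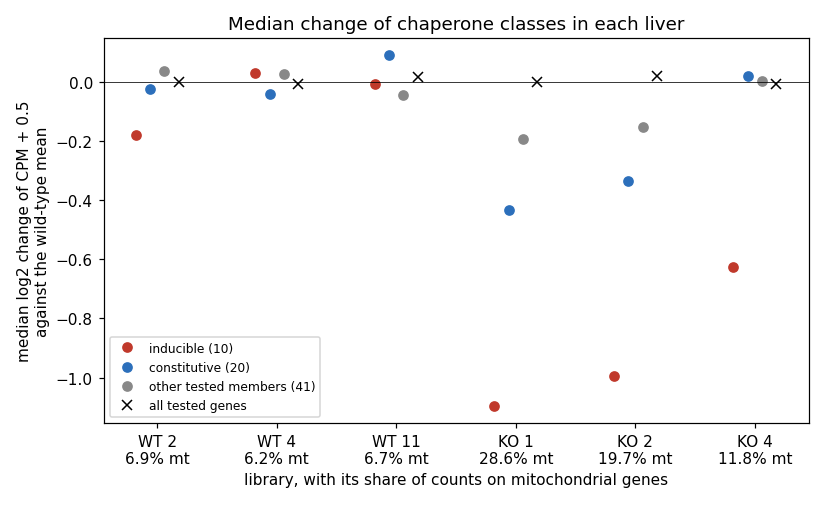
Median change (y axis, log2 of CPM + 0.5 against the wild-type mean) of the inducible, constitutive and other tested chaperone genes and of all tested genes in each library, with the library's mitochondrial share under its name. The inducible median is at −1.09, −1.0 and −0.63 in knockout 1, 2 and 4, and the constitutive median at −0.43, −0.34 and 0.02.

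The inducible members that did not pass were Bag3, Hspb1 and Hspa4l. Bag3, which links HSP70 to the small heat-shock proteins and to autophagy, had 28.0, 29.9 and 28.5 CPM in wild type and 16.4, 22.1 and 26.1 CPM in knockout (−0.42 ± 0.20, adjusted p = 0.157). Its groups did not overlap, but knockout 4 came close to wild type. Hspb1, the small heat-shock protein HSP25, had 16.9, 14.1 and 36.1 CPM in wild type and 17.0, 21.6 and 21.4 CPM in knockout (−0.16 ± 0.32, adjusted p = 0.752). Hspb1 shares 50.1% of its 50-base words with other genes, most often with Hsp25-ps1, so its level is uncertain. Wild type 11 stood apart, and it was also the highest library for Hspa1a, Hspa1b and Hsp90aa1. Without it the log2 fold change of Hspb1 was 0.36, and without wild type 4 that of Hspa4l was 0.35, both of the other sign and not called.

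Ratios of an inducible gene to its constitutive relative within a library do not depend on the scaling, and they differed from pair to pair. The log2 ratio of Hspa1a plus Hspa1b over Hspa8 was −4.87, −4.67 and −4.29 for wild type 2, 4 and 11, compared with −6.73, −6.45 and −6.53 for knockout 1, 2 and 4. The difference of −1.96 was about equally large in each knockout library. For Hsph1 over Hspa4 the wild types gave −0.93, −0.58 and −0.68 while the knockouts gave −2.62, −2.21 and −1.82, a difference of −1.48. Both differences had an exact permutation p of 0.10 (two-sided), the smallest that 3 against 3 libraries can give, and 0.20 after adjustment over the 4 pairs. For Dnaja1 over Dnaja2 the difference was −0.61 (exact permutation p = 0.30), and knockout 4, at 1.47, lay within the wild-type range of 1.31 to 1.54. For Hsp90aa1 over Hsp90ab1 it was 0.04 (exact permutation p = 0.80), with means of −2.52 ± 0.17 and −2.48 ± 0.29 (SD, n = 3 each).

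**Figure D4:**
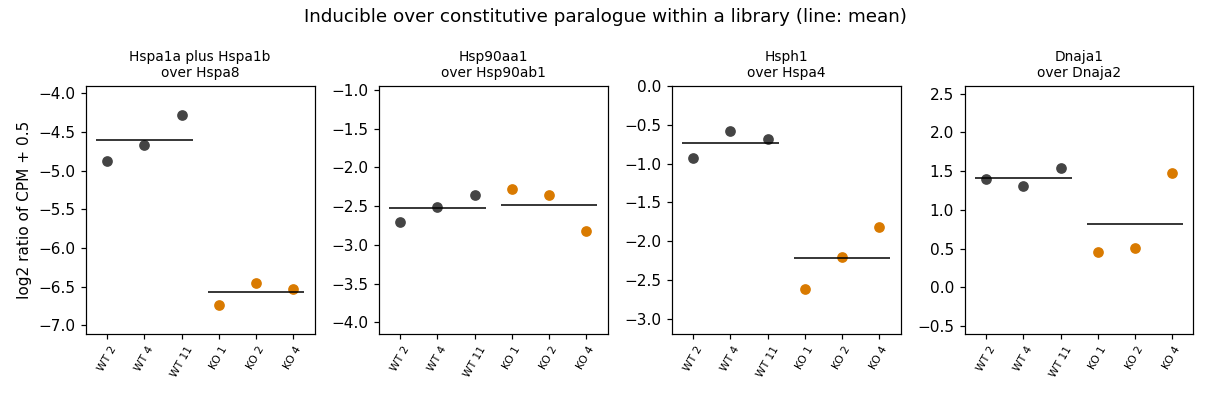
Log2 ratio of an inducible over a constitutive paralogue (y axis, from CPM + 0.5, the same span in each panel) in each wild-type (WT) and knockout (KO) library, with the group means as lines. The ratios of Hspa1a plus Hspa1b over Hspa8 and of Hsph1 over Hspa4 do not overlap between the genotypes, and that of Hsp90aa1 over Hsp90ab1 does.

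Hspa8, the constitutive HSP70 and the most abundant chaperone mRNA here, showed no detectable difference. Its level was 1108, 1137 and 1391 CPM in wild type and 1242, 1131 and 1502 CPM in knockout. The ranges overlapped, the log2 fold change was 0.09 ± 0.20 and the 95% interval ran from −0.35 to 0.54 (adjusted p = 0.779; −0.09 when scaled by library totals). Per kilobase of its main transcript Hspa8 had 506 CPM in wild type, ahead of Hsp90ab1 with 360, Hspe1 with 304, Hspa9 with 173 and Hspd1 with 162. In knockout the same scale gave 540 for Hspa8, 205 for Hspe1 and 192 for Hsp90ab1. Of its words 39.4% occur in other genes, most often in Gm15459, so its absolute level is uncertain. Hspa8 took 18.2% to 21.2% of all counts on members in wild type and 29.1%, 26.6% and 26.0% in knockout 1, 2 and 4, while the inducible members went from 11.6% to 12.3% in wild type down to 7.13%, 8.09% and 8.86%. The members together held 0.662% to 0.677% of all counts in wild type and 0.356%, 0.447% and 0.544% in knockout. All counts here include those on mitochondrial genes, whose share was larger in knockout. After TMM the members summed to 6075, 6203 and 6573 CPM in wild type 2, 4 and 11. The sums were 4271, 4260 and 5778 CPM in knockout 1, 2 and 4.

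Of the other HSP70 genes, Hspa2 fell, and the rest of the cytosolic forms did not pass. Hspa2, best known from male germ cells, had 4.42, 4.69 and 4.32 CPM in wild type and 0.728, 2.26 and 1.68 CPM in knockout (−1.5 ± 0.37, adjusted p = 0.0233). Hspa13, an HSP70 of microsomes, had 38.5, 35.6 and 22.5 CPM in wild type and 10.3, 18.9 and 24.5 CPM in knockout, which overlap (−0.84 ± 0.31, adjusted p = 0.0812). Hspa14, which works on the ribosome, was at 0.19 ± 0.19, and Hspa12a and Hspa12b were at 0.35 ± 0.39 and 0.25 ± 0.40 from about 1 CPM. Hspbp1, an exchange factor of HSP70, was at −0.10 ± 0.25.

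Of the 6 members listed as mitochondrial, Hspa9 and Hspd1 fell and 0 rose (33.3% fell, beside 8.29% of all genes). Hspa9, the mitochondrial HSP70 that pulls imported proteins inward, had 532, 572 and 480 CPM in wild type and 112, 156 and 295 CPM in knockout. It fell by 1.49 on the log2 scale (SE 0.31, adjusted p = 0.0132). Hspd1, which encodes HSP60, had 402, 417 and 356 CPM in wild type and 155, 161 and 268 CPM in knockout (−1.01 ± 0.23, adjusted p = 0.0189). The groups of both genes were apart, with knockout 4 between the other knockouts and wild type. Hspe1, the lid HSP10 of the same chaperonin, had 234, 224 and 248 CPM in wild type and 126, 125 and 225 CPM in knockout, so knockout 4 reached wild type (−0.57 ± 0.24, adjusted p = 0.124). Hspd1 and Hspe1 share 42.1% and 22.8% of their words with other genes. Dnajc19, a DnaJ of the import motor, lay higher in knockout without passing (0.37 ± 0.16, adjusted p = 0.132), and Dnajc11 was at 0.13 ± 0.16.

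Of the CCT subunits, 1 fell and the others did not pass. The complex has 8 different subunits in its ring, and the 7 with names that fit the rule were tested, with the testis form Cct6b beside them. Cct5 had 94.0, 99.5 and 102 CPM in wild type and 35.4, 35.5 and 68.7 CPM in knockout (−1.08 ± 0.26, adjusted p = 0.0203). It was the only subunit that passed, 1 of 8 tested (12.5%, against 17.0% of all genes), and its call was lost in each fit without 1 library other than knockout 4. Cct4 and Cct3 followed the same pattern without passing. Cct4 had 80.6 to 85.5 CPM in wild type and 39.6, 38.7 and 70.4 CPM in knockout (−0.74 ± 0.24, adjusted p = 0.0541). Cct3 had 65.2 to 89.3 CPM in wild type and 28.1, 27.6 and 71.7 CPM in knockout (−0.80 ± 0.34, adjusted p = 0.128). Without knockout 4 both passed, at −1.10 and −1.42 (adjusted p = 0.00108 and 0.000976). Cct2 was at −0.35 ± 0.19, and Cct6a and Cct6b, which did not overlap, were at −0.34 ± 0.17 and −1.03 ± 0.47, while Cct8 and Cct7 were at 0.14 ± 0.17 and 0.21 ± 0.18 and overlapped between the genotypes. The subunit 1 gene, Tcp1, which the name rule does not take, was at −0.44 ± 0.20 (adjusted p = 0.148).

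Prefoldin, the complex that hands unfolded actin and tubulin to CCT, changed mostly in the opposite direction. Of its 6 subunit genes, which come from a list of 39 co-chaperones and partners outside the name rule, 5 rose and 1 fell. Over all tested genes 8.76% rose and 8.29% fell. Pfdn6 had 56.7, 54.0 and 71.5 CPM in wild type and 171, 136 and 108 CPM in knockout (1.18 ± 0.21, adjusted p = 0.00845). Pfdn2 had 59.2, 57.4 and 59.4 CPM in wild type and 157, 107 and 94.8 CPM in knockout (1.03 ± 0.21, adjusted p = 0.0122). Both had no overlap between the genotypes and were highest in knockout 1. Pfdn4 (1.21 ± 0.23), Pfdn5 (0.84 ± 0.19) and Pfdn1 (0.59 ± 0.16) rose as well, and Vbp1, which encodes prefoldin 3, fell (−1.04 ± 0.24, adjusted p = 0.0193). Prefoldin was singled out of the list after its values were seen.

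Over the whole list of 39 partners, 6 rose and 3 fell, or 15.4% and 7.69%, beside 8.76% and 8.29% of all genes, and the median was −0.02. When 1 library was left out, 2 to 7 partners rose and 1 to 11 fell, the most of each without knockout 4. In the same fits 2.18% to 13.7% of all genes rose and 2.39% to 15.7% fell, also the most without knockout 4. With knockout 4 as the only knockout, 0 rose and 0 fell. Stub1, the ubiquitin ligase CHIP that acts on clients of HSP70, had 19.0, 22.7 and 20.6 CPM in wild type and 10.9, 9.02 and 10.3 CPM in knockout (−1.04 ± 0.18, adjusted p = 0.00758). Its fall was as large in knockout 4 as in the other knockouts. Ahsa2, a relative of the HSP90 activator Ahsa1, fell from 17.9 to 8.35 CPM (−1.10 ± 0.24, adjusted p = 0.0153), and Tomm34 rose (0.72 ± 0.20). The HSP90 partners Cdc37 (−0.89 ± 0.29, adjusted p = 0.058), Chordc1 (−0.59 ± 0.20, adjusted p = 0.0668), Stip1 (−0.44 ± 0.22) and Ahsa1 (−0.47 ± 0.25) did not pass, nor did Fkbp4 (−0.08 ± 0.20) and Ptges3 (0.35 ± 0.17).

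Small heat-shock proteins, BAG proteins and the heat-shock factors did not pass in the fit of all 6 libraries. Hspb8, the partner of Bag3, had 101 to 129 CPM in wild type and 137, 158 and 138 CPM in knockout (0.32 ± 0.17, adjusted p = 0.215). Hspb6 had 14.7 to 16.1 CPM in wild type and 18.9 to 23.1 CPM in knockout (0.43 ± 0.17, adjusted p = 0.108). Both lay higher in all 3 knockouts without passing, and Hspb11 was at −0.13 ± 0.34. Bag1 and Bag6 were at 0.12 ± 0.16 and 0.26 ± 0.16 (the latter without overlap), Bag4 at 0.30 ± 0.25, Bag5 at −0.24 ± 0.22 and Bag2 at −0.48 ± 0.34. Hsf1, the master factor of the response, had 15.0, 12.8 and 13.3 CPM in wild type and 19.2, 18.1 and 17.7 CPM in knockout (0.42 ± 0.17, adjusted p = 0.109). Hsf2 had 20.4, 19.7 and 16.9 CPM in wild type and 37.1, 30.5 and 21 CPM in knockout (0.64 ± 0.22, adjusted p = 0.0697). The levels of both factors lay above wild type in each knockout library, and Hsf2 was close to wild type in knockout 4.

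The chaperones of the endoplasmic reticulum that the rule leaves out did not pass, 0 of 5, beside 17.0% of all genes called. All 5 log2 fold changes were below 0, with a median of −0.56. Without knockout 4, 4 of the 5 fell (15.7% of all genes fell), and with no filter on low counts also 4 (7.66%). A replicate block gave 2 (6.88%), DESeq2 1 (9.76%) and library totals 1 (11.8%). Hspa5, which encodes BiP, had 637 to 859 CPM in wild type and 174, 224 and 691 CPM in knockout (−1.04 ± 0.43, adjusted p = 0.120), so knockout 4 lay within the wild-type range.

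Members that fell had a median main transcript of 2967 bases, tested members that were not called 2441 bases, and all tested genes with a length 2800.5 bases. The median GC content of their transcripts was 50.4% and 48.6%. The 12 members that were not tested reached at most 13 counts (Dnajb13 in knockout 2, 0.698 CPM) and at most 0.728 CPM (Dnajb13 in knockout 1, 11 counts). They were Dnajc27, Dnajc6, Dnajb13, Dnajb3, Dnajb7, Dnajb8, Hspa1l, Hspb2, Hspb3, Hspb7, Hspb9 and Cct8l1, and Hspb3 had 0 counts in all 6 libraries, which allows up to 0.139 to 0.199 CPM.

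Markers of other liver cells also differed between the genotypes, and in pieces of liver fewer cells of a type and less RNA per cell cannot be told apart. Of 22 markers of T and NK cells, B cells and neutrophils, 15 were tested and 11 rose, beside 8.76% of all genes. Which of these markers passed the filter on low counts through knockout only was not checked, so the rises may be partly built in. Of 10 T and NK cell markers 7 were tested and 5 rose, of 6 B cell markers 6 were tested and 4 rose, and of 6 neutrophil markers 2 were tested and 2 rose. Their summed levels were 3.95 to 6.83, 8.41 to 11.8 and 1.38 to 1.92 CPM in wild type against 11.2 to 22.0, 17.4 to 29.4 and 4.15 to 9.77 CPM in knockout, and the neutrophil genes Ly6g, Camp and Mpo had 0 counts in all wild types. Of 6 sinusoidal endothelial markers 4 fell, beside 8.29% of all genes, with sums of 121 to 157 CPM in wild type and 69.4 to 106 CPM in knockout. Of 6 Kupffer cell and 6 stellate cell markers 0 were called, of 5 tested cholangiocyte markers 1 fell and of 6 red cell markers 1 rose and 1 fell. Their sums in wild type and knockout were 151 to 236 and 112 to 253 CPM for Kupffer cells, 80.6 to 135 and 92.9 to 141 CPM for stellate cells, 6.89 to 9.29 and 6.18 to 9.20 CPM for cholangiocytes and 300 to 507 and 362 to 843 CPM for red cells. Muscle, where small heat-shock proteins are abundant, was represented by Des alone (1.07, not called), with Mb at 0 in all libraries. Des is also among the 6 stellate cell markers, so it does not mark muscle alone. Whether these shifts had a part in the levels of the chaperone genes was not tested.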

How the data were processed

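Liver RNA of 3 Nogo knockout mice and 3 wild-type littermates was sequenced. A Qiagen RNeasy kit and a SMARTER library kit are named in the labels' protocols. The authors deposited raw counts per gene, as whole numbers with no normalization and 1 column per mouse. The only build that the submitters' processing notes name is mm10. For the aligner, the counter, its annotation, its strand setting and its handling of reads with several matches, no setting is given in the sources used here. Reads of near-identical copies may thus be lost or split, so the share of each member's 50-base words found in other GENCODE M21 transcripts was computed. Coordinates and lengths come from the same annotation, with the longest principal transcript as the main one.

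Counts were tested in R 4.3.3 with edgeR 4.0.16 (quasi-likelihood F test, TMM scaling, filterByExpr), knockout against wild type, without covariates. The fit covered the whole table, with Benjamini-Hochberg adjustment over 13304 genes and a call at an adjusted p under 0.05. Each SE was obtained as the size of the log2 fold change over the root of its F value, and 95% intervals use the fit's degrees of freedom. Members, lists, the rule for named genes (called, inducible and constitutive members, small heat-shock proteins, BAG proteins, heat-shock factors and called partners; other members by range and by non-overlap) and tests were chosen with earlier results of these data known. Alternatives were DESeq2 1.42.0, library totals, other filters, each library left out, knockout 4 alone, a replicate block, the mitochondrial share as a covariate and mitochondrial genes left out. On simulated counts for 13304 genes of this comparison the test recovered 48% of 100 2-fold and 92% of 100 4-fold changes, with 4 false calls among 144. Those counts were drawn independently, with the same spread in both genotypes and no grading among knockout libraries. The recovery and false calls thus need not hold for the real libraries. Libraries of 1 genotype differed by 21.0 to 170.6 in chi-square per degree of freedom, so none was a repeat of another. The p-values reflect only how far these samples spread. Floors from counts cover counting error only, while the 95% intervals also include the spread between libraries of a genotype.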

Additional observations from a re-analysis of the deposited data

How the results depend on the processing

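Depth limits the members below about 1 CPM, and groups of 3 limit all calls. Over all genes 2268 were called, and 827, 630, 1691, 804, 979 and 4046 without 1 library, so the count ran from 630 (without wild type 4) to 4046 (without knockout 4). The members that fell ran from 4 to 25 and those that rose from 0 to 3 in the same fits. The median of the inducible members ran from −1.20 to −0.77 and that of the constitutive members from −0.40 to −0.12. With knockout 4 alone, 25 genes, 0 members that rose and 0 that fell were called, and the medians were −0.64 and 0.016, a change of sign for the constitutive members. With mitochondrial share in the model the values were 0, 0 and 0 (1146 genes at an unadjusted p under 0.05), with medians of −0.57 and 0.12. The cause was not tested.

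All 15 falls were also called with DESeq2 (18 fell), library totals (17), no filter on low counts (21), at least 1 CPM in 3 libraries (15) and mitochondrial genes left out (15). The 1 rise became 0 with DESeq2, library totals and no filter. Library totals moved the median of all genes to −0.16, where 690 genes rose and 1566 fell (TMM: 1165 and 1103). No named member that was called changed sign in any fit. The ratio of Hsp90aa1 over Hsp90ab1, which differed by 0.04, changed sign without wild type 2 (−0.050), knockout 1 (−0.063) and knockout 2 (−0.027), and ran from −0.063 to 0.21 over the 6 fits. The other ratios kept their sign without each library, and with a pseudocount of 0.1 CPM.

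Label numbers 2 and 4 occur in both genotypes. The deviations from the group means correlated at −0.06 and 0.07 across genes in those 2 pairs, and at −0.11 to 0.08 in pairs with different numbers. With 3 libraries per genotype this cannot show whether equal numbers mark a shared litter or batch. With a replicate block 1686 genes were called, 0 members rose and 11 fell, 10 of them among the 15.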

Other observations

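Genes that follow body temperature, the time of day or handling were read beside the chaperones. The cold-inducible RNA-binding genes stood in opposite directions, with Cirbp at 14.2, 11.3 and 19.3 CPM in wild type 2, 4 and 11 and 29.1, 23.0 and 21.7 CPM in knockout 1, 2 and 4 (0.72 ± 0.23, edgeR, adjusted p = 0.0523). Rbm3 was at 23.6, 32.0 and 40.3 CPM in wild type and 13.0, 19.2 and 23.0 CPM in knockout (−0.79 ± 0.25, adjusted p = 0.0553). Neither passed. Of 13 tested clock genes 1 rose (7.69%, beside 8.76% of all genes) and 0 fell. Ciart, a repressor of the clock, rose from 14, 11.5 and 5.90 CPM to 38.6, 18.1 and 34.1 CPM (1.54 ± 0.34, adjusted p = 0.0163), while Dbp was at −0.02 ± 0.32 and Nr1d1 at 0.33 ± 0.32. Wild type 11, the library with the highest Hspa1b, had 55.6 CPM of Dbp and 3.20 CPM of Arntl, where wild type 2 and 4 had 130 and 137 CPM of Dbp and 0.332 and 0.533 CPM of Arntl. Of 14 tested immediate early genes 1 rose (7.14%, beside the same 8.76%) and 0 fell. Ier2 rose (0.88 ± 0.24, adjusted p = 0.0305), and Fos, Jun and Egr1 were at −1.31 ± 0.62, −0.61 ± 0.37 and −0.10 ± 0.41. The hour of sampling is not stated in the labels, and the part of these genes in the chaperone levels was not tested.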
